A study of Mus musculus with 48 samples.

Results

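The genes described here are 40 listed as endothelial, pericyte and vascular genes, of which Cspg5 is not a vascular marker. All were measured by RNA-seq in bulk striatum, the deep forebrain region most affected in Huntington's disease. They were chosen by gene name and fall into 24 genes of endothelial cells, 9 of mural cells (pericytes and vascular smooth muscle), 4 of fibroblast-like cells, the 2 basement membrane collagen genes Col4a1 and Col4a2, and Cspg5. All 40 were found once among the 48795 genes of the count table, and all 40 were among the 19714 genes that passed the filter on low counts.

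The 48 libraries came from 48 mice of 6 genotypes, with 4 females and 4 males in each. Wild-type (WT) mice carried neither change. Msh3+/- and Msh3-/- mice are labelled as lacking one or both copies of Msh3, a DNA mismatch repair gene known to drive expansion of CAG repeats in somatic cells. Q140 mice were heterozygous for a knock-in allele that puts a long CAG repeat into the mouse huntingtin gene, so the allele is driven by its own promoter in every cell type that uses it. Q140 x Msh3+/- and Q140 x Msh3-/- mice carried the same heterozygous knock-in together with the loss of one or both Msh3 copies. The strain was C57BL/6 throughout. Age is labelled as 12 months, whereas the text on dissection speaks of 6 months, so it is not certain.

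Brain capillaries are tubes of endothelial cells that are sealed by tight junctions and carry transporters for what the brain needs, which together form the blood-brain barrier. Pericytes lie on the outside of capillaries and smooth muscle cells on arterioles, and both share a basement membrane with the endothelium, whereas fibroblast-like cells sit around larger vessels. Endothelial VEGF and angiopoietin receptors, the PDGF receptor of pericytes and Wnt ligands from neural cells hold this unit together.

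The reads assigned to genes numbered 38.92 M (M stands for 1000000) in the shallowest library, 47.33 M in the median and 60.9 M in the deepest. No member had a count of 0 in any library, and the lowest count was 19 reads, for Lum. Reads of the targeted gene Msh3 went against the simplest reading of the labels: they ranged from 26.4 to 30.9 in WT, 72.0 to 76.5 in Msh3+/- and 118 to 126 in Msh3-/- mice, in counts scaled to a library of 1000000 reads (CPM). With the knock-in the means were 30.5, 74.9 and 116 CPM in the same order, so Msh3 reads separated the 3 Msh3 genotypes but were higher with each allele labelled as lost. The genotypes are named by their labels throughout. After genotype and sex were removed, 4 libraries lay furthest out on the first principal component, of which none was WT or Q140. All 4 bore replicate number 1 of their sex. WT female 2 was the deepest library and stood apart in the vascular genes: it was the highest of the 8 WT libraries for 18 of the 40 members, 14 of them endothelial.

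Per length of transcript, the members spanned a wide range. In the deposited FPKM values, Slc2a1, the glucose transporter Glut1, had the highest level at 30.5 ± 4.13 (SD, n = 48). Vtn (vitronectin) followed at 21.9 ± 2.10, then the pericyte gene Rgs5 at 21.6 ± 1.99, and these 2 did not differ beyond their spread. The tight junction gene Cldn5 had 8.86 ± 1.74 FPKM and the VEGF receptor gene Flt1 5.57 ± 1.19. At the low end stood the fibroblast-like genes Col1a1 with 0.529 FPKM, Col1a2 with 0.384 and Lum with 0.384, and the large glycoprotein gene Vwf had 1.70 FPKM. Lum also varied most among mice, with a coefficient of variation of 30.4%. The median coefficient of variation was 11.6% for endothelial, 10.8% for mural and 16.0% for fibroblast-like genes.

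**Figure D1:**
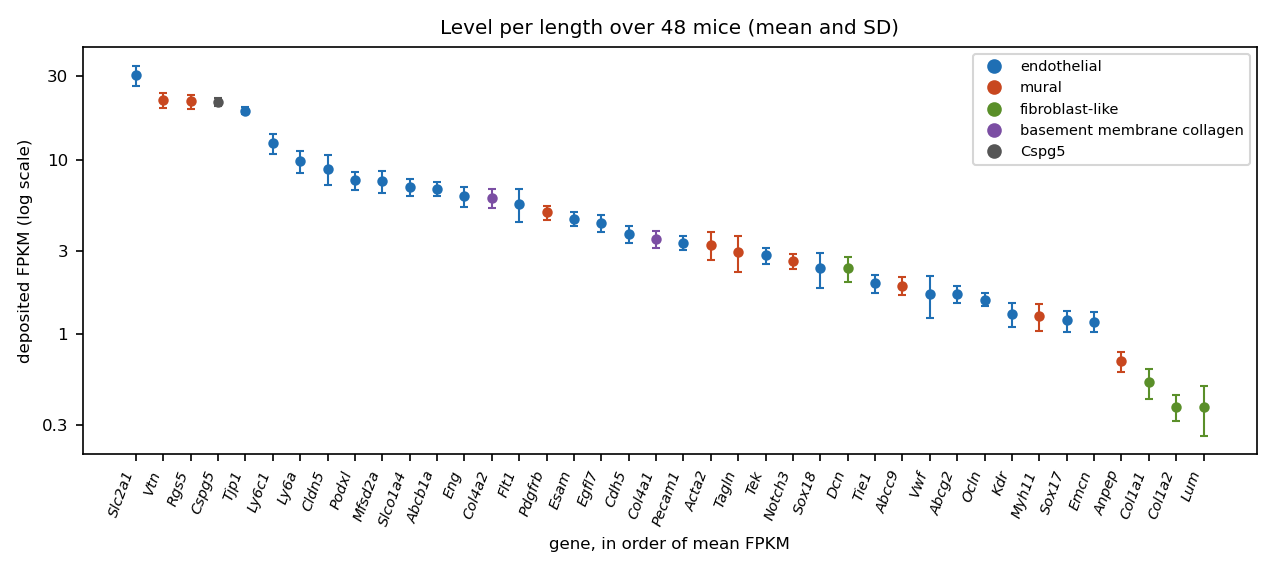
Level of each of the 40 genes in FPKM (log axis), as the mean and SD over 48 mice, ordered by level and coloured by group of genes. Slc2a1 is the highest at 30.5 FPKM, and Lum and Col1a2 are the lowest at 0.384 FPKM.

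Cldn5, Pecam1, Cdh5, Pdgfrb and Rgs5, which define endothelial and mural cells, were present in every library. So were all other members, so presence in bulk tissue does not test the label of the list. Cspg5, neuroglycan C, is known as a proteoglycan of neurons and glia and is not a vascular marker. The pericyte proteoglycan NG2 is the product of Cspg4. Cspg5 had 21.4 FPKM with a coefficient of variation of 5.6%, and it is given on its own below. Tjp1 and Slc2a1 are also made outside the endothelium. The genes Ly6a, Ly6c1 and Abcb1a have close paralogs between which reads could be split, so their values are less certain. Residual blood varied between mice: the summed level of 5 red cell genes was 0.0167 to 1.93 CPM in WT, 0.0209 to 7.94 CPM in Msh3+/-, 0.119 to 17.1 CPM in Msh3-/-, 0.0189 to 10.1 CPM in Q140, 0.0899 to 23.1 CPM in Q140 x Msh3+/- and 0.0235 to 12.2 CPM in Q140 x Msh3-/- mice. Hba-a2 had no read in 21 of 48 libraries, and the part of blood in the vascular levels was not tested.

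Promoter sequences are shown for Cldn5 and Flt1, which had the same fall in Q140 mice (log2 difference -0.43) and lie upstream of a barrier gene and of a growth factor receptor gene. Both are the 250 bases before the RefSeq start in GRCm38.p6, on the gene's own strand, 5′ to 3′. Capitals mark the GC box GGGCGG, read here as its reverse complement CCGCCC, and the TATA box TATAAA.
Cldn5, chr16:18776597-18776846, plus strand: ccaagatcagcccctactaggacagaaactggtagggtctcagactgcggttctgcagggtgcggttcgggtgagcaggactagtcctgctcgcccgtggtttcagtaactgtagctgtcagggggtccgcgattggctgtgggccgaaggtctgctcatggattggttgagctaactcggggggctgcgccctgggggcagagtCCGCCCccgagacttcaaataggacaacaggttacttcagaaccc
Flt1, chr5:147726012-147726261, minus strand: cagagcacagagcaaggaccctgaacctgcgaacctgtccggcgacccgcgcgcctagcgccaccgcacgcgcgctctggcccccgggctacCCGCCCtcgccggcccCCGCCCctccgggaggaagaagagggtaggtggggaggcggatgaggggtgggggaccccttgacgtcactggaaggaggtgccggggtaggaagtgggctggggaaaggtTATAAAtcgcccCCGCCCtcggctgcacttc
The Cldn5 window held 1 GC box, 45 bases before the start. That of Flt1 held GC boxes 158, 142 and 19 bases before the start and a TATA box 31 bases before it. RefSeq entries were found for 25 of the 40 genes, with 31 windows of 250 bases before and 50 after the start. Searched on both strands, the GC box lay in 16 of these 31 windows (51.6%), against 35.7% of all 32851 windows in the table. TATAAA lay in 6 windows (19.4%), against 13.6% of all. The ETS site CCGGAAG and the CArG box lay in none of the 31 windows, against 8.86% and 1.63% of all, which says only that these letters are not in these windows.

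In Q140 mice, 23 of the 40 genes fell relative to WT and none rose (edgeR's quasi-likelihood test, adjusted p under 0.05 over all genes tested). Over all genes, 16.0% were called lower and 17.0% higher. The members' median log2 difference was -0.22, against -0.004 over all genes tested. A negative difference was found for 39 of 40 members, and 30 had an unadjusted p under 0.05. The share of all genes with an unadjusted p under 0.05 was not counted, here or in later comparisons. Lower calls were made for 16 of 24 endothelial genes (median -0.23), 6 of 9 mural genes (median -0.25), none of the 4 fibroblast-like genes (median -0.19) and neither of the 2 collagen IV genes (median -0.14). Among the fibroblast-like genes 1 had an unadjusted p under 0.05, and DESeq2 and limma-voom also called none of them. In simulated data edgeR called 52.2% of genes given a log2 change of 0.25, so a gene without a call may still differ. Far fewer genes were changed in the simulation than were called here, so 52.2% is not the rate of this comparison. In bulk tissue, fewer vessel cells and less RNA per cell cannot be told apart. Without WT female 2, 17 members were called lower. Scaling by total counts gave 14 lower calls (36 of 40 negative, median -0.15), limma on the FPKM values 12, and a term for the prefix of the sample name, whose meaning the labels do not give, 11. Only 2 of 27 prefixes held both WT and Q140 mice, so the prefix fit had few direct comparisons.

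**Figure D2:**
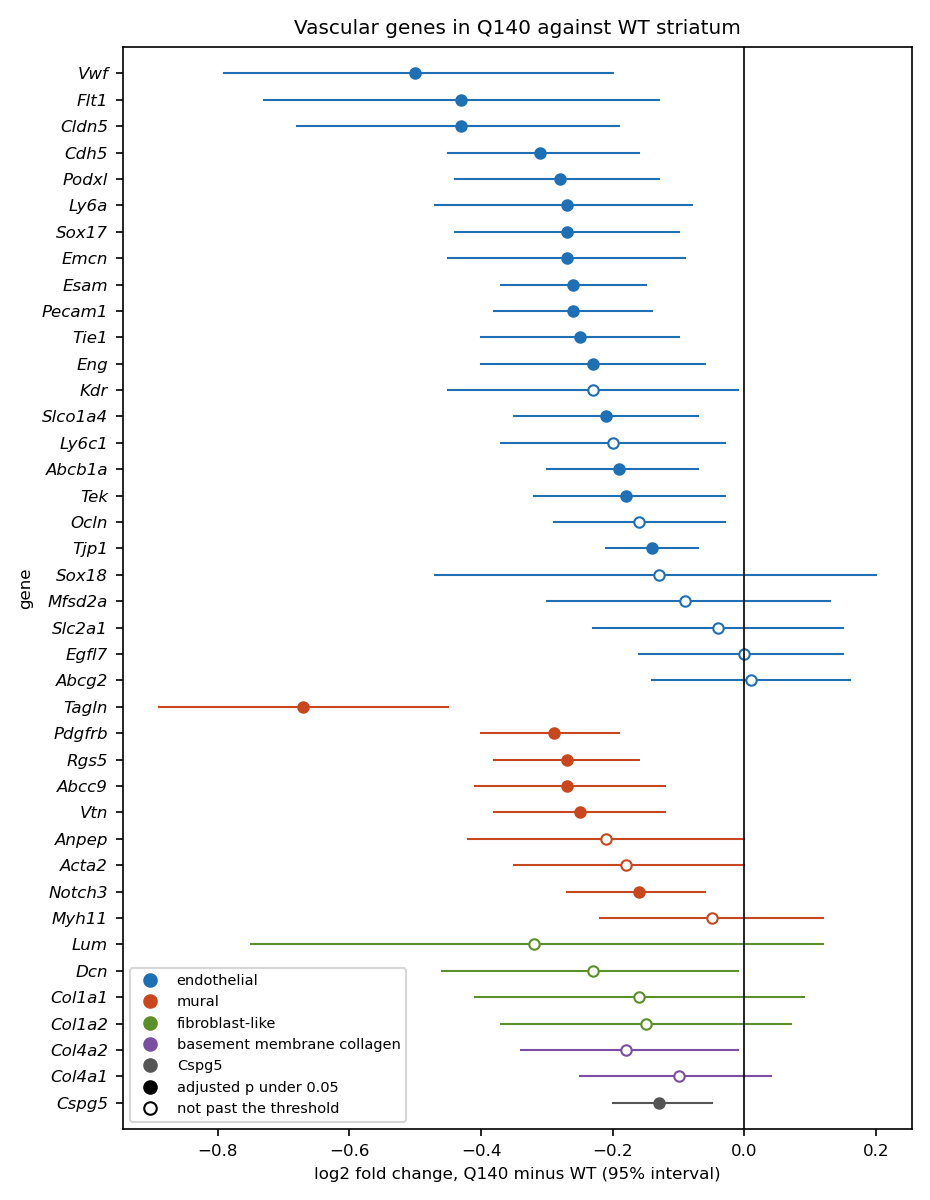
Log2 difference between Q140 and WT mice (8 each) for the 40 genes, with 95% intervals from the fit across all genes; filled points have an adjusted p under 0.05. Of the filled points, 16 are endothelial and 6 mural, and none is a fibroblast-like or collagen IV gene.

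Of 6 genes of endothelial junctions, 5 were called lower, with a median of -0.26. Cldn5 (ENSMUSG00000041378, GRCm38 chr16:18776847-18778262, plus strand) encodes claudin-5, the main strand protein of the brain's endothelial tight junction. Its lowest, median and highest levels were 10.1, 13.0 and 22.6 CPM in WT mice and 8.52, 10.7 and 12.6 CPM in Q140 mice. Every Q140 mouse lay below the WT mean, although the groups overlapped. That WT mean was raised by females, which averaged 17.0 ± 4.29 CPM, whereas WT males averaged 11.8 ± 1.59 CPM (SD, n = 4 each). Q140 females (10.6 ± 1.73 CPM) and Q140 males (10.7 ± 1.85 CPM) were alike. Most of the fall thus lay in females, and males differed by less than their spread. A sex difference of the fall was not called by edgeR. Over both sexes the log2 difference was -0.43 (SE 0.121, 95% interval -0.68 to -0.19, adjusted p = 0.00433 by edgeR). Cdh5 (ENSMUSG00000031871, GRCm38 chr8:104101625-104144511, plus strand) encodes VE-cadherin, the adhesion protein of endothelial adherens junctions. It had 15.2, 17.2 and 20.6 CPM in WT mice and 10.9, 14.1 and 15.7 CPM in Q140 mice, so that the groups met only at their edges. The difference was -0.31 (SE 0.0714, adjusted p = 0.00056). Pecam1 (-0.26, adjusted p = 0.000568) and Esam (-0.26, adjusted p = 0.000158), both adhesion molecules between endothelial cells, and Tjp1, the scaffold protein ZO-1 (-0.14, adjusted p = 0.00168), also fell. Ocln, occludin, had a difference of -0.16 (adjusted p = 0.0539). Pecam1 and Esam stayed below the threshold in all alternative fits, whereas Tjp1 lost its call with total counts, FPKM or the prefix term, and the prefix term ended the calls of Cldn5 (-0.30, adjusted p = 0.215) and Cdh5 (-0.20, adjusted p = 0.152).

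Of 5 endothelial growth factor receptors, 4 were called lower. Flt1 (ENSMUSG00000029648, GRCm38 chr5:147561604-147726011, minus strand) is the VEGF receptor 1, known as a high-affinity receptor that holds VEGF back from its partner Kdr. Flt1 had 79.6, 92.0 and 112 CPM in WT mice and 52.2, 72.1 and 77.8 CPM in Q140 mice (lowest, median and highest). The highest Q140 mouse lay below the lowest WT mouse. The log2 difference was -0.43 (SE 0.148, 95% interval -0.73 to -0.13, adjusted p = 0.0205). This call was lost without Q140 female 1 (adjusted p = 0.0502) or female 3 (adjusted p = 0.0517), and with the prefix term (-0.39, adjusted p = 0.229). The receptor of angiopoietins Tek (Tie2) and its relative Tie1 had differences of -0.18 (adjusted p = 0.0479) and -0.25 (adjusted p = 0.00713). Eng, endoglin, a co-receptor of the TGF-beta family, had -0.23 (adjusted p = 0.0347). Kdr, VEGF receptor 2, had a similar difference but did not pass (-0.23, adjusted p = 0.108). The call of Tek was lost in 16 of 29 alternative fits (highest adjusted p = 0.528) and that of Eng in 11 of 29 (highest 0.126), with several different mice left out and with total counts, FPKM, no filter or the prefix term; Tie1 lost its call with FPKM or the prefix term.

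Of 5 transporters of the barrier, 2 were called lower, and the median difference was -0.09. Slc2a1 carries glucose into the brain. It had 89.6, 116 and 137 CPM in WT mice and 93.9, 111 and 131 CPM in Q140 mice, and the ranges overlapped almost fully. The difference was -0.04 (SE 0.0931, adjusted p = 0.796), with a 95% interval of -0.23 to 0.15. Mfsd2a, which carries lysophospholipids with omega-3 fatty acids, had -0.09 (adjusted p = 0.573). Abcg2, an efflux pump, had 0.01 (adjusted p = 0.94), the one positive difference with TMM scaling. The efflux pump gene Abcb1a (P-glycoprotein, -0.19, adjusted p = 0.00986) and the organic anion carrier gene Slco1a4 (-0.21, adjusted p = 0.0129) fell. Both calls were lost without WT female 2, with an adjusted p of 0.0679 for Abcb1a and 0.07 for Slco1a4, and with total counts or FPKM, where Slc2a1 had 0.03. The prefix term also ended the call of Abcb1a (adjusted p = 0.125).

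Among 8 endothelial genes of the cell surface, of secreted proteins and of transcription factors, 5 were called lower, with a median of -0.27. Vwf encodes von Willebrand factor, the clotting protein stored in endothelial granules. Its levels were 22.1, 27.6 and 67.9 CPM in WT mice and 16.6, 22.8 and 28.9 CPM in Q140 mice. The WT maximum is WT female 2, and the next WT mouse had 32.0 CPM. With all mice the difference was -0.50 (SE 0.147, adjusted p = 0.007), and without WT female 2 it was -0.27 (adjusted p = 0.0614); the prefix term (adjusted p = 0.164) and a fit of the 2 groups alone (adjusted p = 0.0617) also ended the call. Podxl, podocalyxin, a sialomucin of the luminal surface, had 38.8, 44.0 and 54.5 CPM in WT and 30.1, 35.8 and 44.6 CPM in Q140 mice. All 8 Q140 mice lay below the WT mean, and the difference was -0.28 (SE 0.078, adjusted p = 0.00379; 0.369 with the prefix term). Sox17 encodes a transcription factor of arterial endothelium. Sox17 had 4.65, 6.83 and 7.64 CPM in WT mice and 4.18, 5.17 and 6.16 CPM in Q140 mice, a difference of -0.27 (SE 0.0841, adjusted p = 0.00901; 0.0506 with FPKM). Ly6a, the surface protein Sca-1, had 10.98, 12.8 and 16.9 CPM in WT and 9.23, 10.6 and 12.8 CPM in Q140 mice. Its highest Q140 mouse was level with the WT median. The difference of Ly6a was -0.27 (SE 0.0948, adjusted p = 0.0211), and the call was lost without WT female 2 (adjusted p = 0.0792) and with total counts, FPKM, plate column or the prefix term. Emcn, endomucin, fell by 0.27 on the log2 scale (adjusted p = 0.0163), a call lost without Q140 female 4 (adjusted p = 0.0606) and with total counts, FPKM or the prefix term. Egfl7, a secreted endothelial protein (-0.00, adjusted p = 0.975), Sox18 (-0.13, adjusted p = 0.577) and Ly6c1 (-0.20, adjusted p = 0.0661) did not pass.

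**Figure D3:**
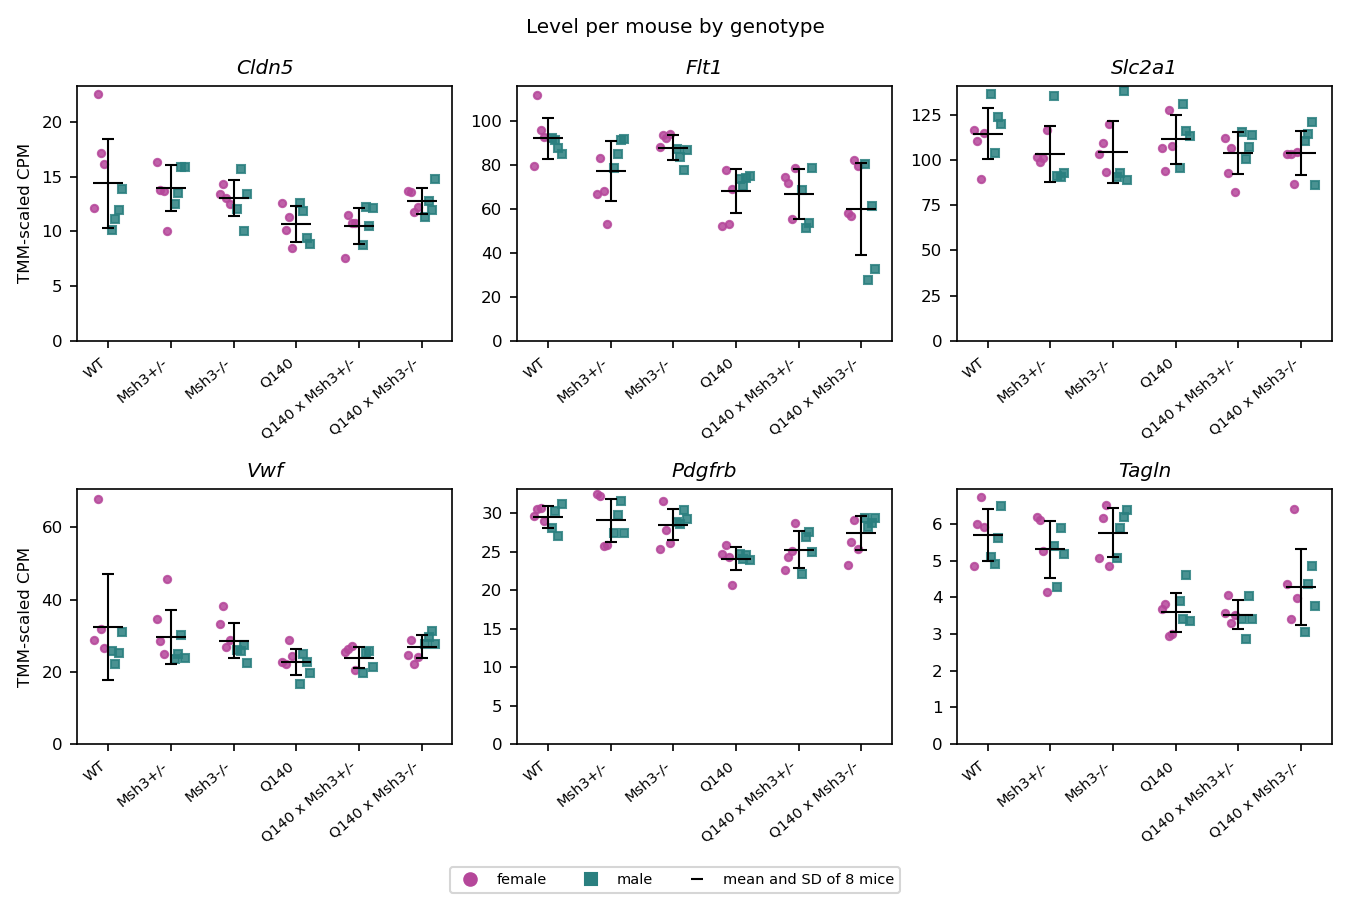
CPM of Cldn5, Flt1, Slc2a1, Vwf, Pdgfrb and Tagln in each of the 48 mice by genotype (axes start at 0); circles are females, squares males, and bars give the mean and SD of 8 mice. Flt1, Pdgfrb and Tagln do not overlap between WT and Q140, Slc2a1 overlaps almost fully, and 1 WT mouse stands at 67.9 CPM for Vwf.

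Of 6 genes that mark pericytes or all mural cells, 5 were called lower, with a median of -0.26. Pdgfrb is the PDGF receptor beta through which endothelial PDGF-B recruits pericytes. It had 27.0, 29.9 and 31.1 CPM in WT mice and 20.6, 24.4 and 25.9 CPM in Q140 mice. Every Q140 mouse lay below every WT mouse. The difference was -0.29 (SE 0.0543, 95% interval -0.40 to -0.19, adjusted p = 1.8e-05). Rgs5 encodes a regulator of G protein signalling that is a standard pericyte marker. Its levels were 98.9, 109 and 116 CPM in WT and 83.2, 89.6 and 96.9 CPM in Q140 mice, again without overlap. The difference of Rgs5 was -0.27 (SE 0.0526, adjusted p = 5.12e-05). Vtn, which brain pericytes secrete, had 44.1, 48.5 and 56.4 CPM in WT and 35.4, 41.7 and 45.6 CPM in Q140 mice. These ranges overlapped narrowly, and the difference was -0.25 (SE 0.0644, adjusted p = 0.00227). Abcc9, the sulfonylurea receptor subunit of the pericyte potassium channel, had 15.6, 17.6 and 22.1 CPM in WT and 13.3, 14.3 and 17.7 CPM in Q140 mice, a difference of -0.27 (SE 0.0714, adjusted p = 0.00255). The highest Q140 mouse for Abcc9 was close to the WT median. Anpep, aminopeptidase N, had -0.21 (adjusted p = 0.112). The calls of Pdgfrb, Rgs5, Vtn and Abcc9 held in all alternative fits.

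Notch3 encodes the Notch receptor of mural cells, whose mutations are known to cause an inherited small vessel disease. It had 19.1, 20.8 and 26.7 CPM in WT mice and 16.8, 19.0 and 22.6 CPM in Q140 mice. Its ranges overlapped, with 7 of 8 Q140 mice below the WT mean. The difference of Notch3 was -0.16 (SE 0.0514, adjusted p = 0.00989), a call lost with total counts (adjusted p = 0.165), FPKM or the prefix term.

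The 3 contractile genes of smooth muscle differed from one another. Tagln (ENSMUSG00000032085, GRCm38 chr9:45929619-45936058, minus strand) encodes transgelin (SM22 alpha), an actin-binding protein of smooth muscle. It had 4.87, 5.77 and 6.75 CPM in WT mice and 2.94, 3.55 and 4.60 CPM in Q140 mice. The 2 groups did not overlap. This was the largest difference of the 40 genes, -0.67 (SE 0.108, 95% interval -0.89 to -0.45, adjusted p = 1.58e-06), so that Tagln fell by 37.0%. Acta2, smooth muscle alpha actin, had 4.54, 5.96 and 7.47 CPM in WT and 4.73, 5.002 and 6.55 CPM in Q140 mice, with a difference of -0.18 (SE 0.0863, adjusted p = 0.109). Myh11, smooth muscle myosin heavy chain, had 6.60, 8.25 and 10.6 CPM in WT and 6.65, 8.31 and 9.76 CPM in Q140 mice. Its medians were almost equal, and the difference was -0.05 (SE 0.0825, 95% interval -0.22 to 0.12, adjusted p = 0.70), or 0.02 with total counts.

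Fibroblast-like genes had negative differences of which none passed. Dcn, decorin, a small proteoglycan that binds collagen, had 4.21, 5.25 and 6.64 CPM in WT mice and 3.26, 4.52 and 5.52 CPM in Q140 mice. The groups overlapped over most of their range, and the difference was -0.23 (SE 0.112, adjusted p = 0.107). The fibrillar collagen genes Col1a1 (-0.16, adjusted p = 0.36) and Col1a2 (-0.15, adjusted p = 0.309) had smaller values. Lum, lumican, had -0.32 (adjusted p = 0.276) with an interval of -0.75 to 0.12, the widest of the list. Col4a2, a chain of the collagen IV network of the basement membrane, had 34.9, 40.8 and 47.3 CPM in WT and 33.8, 36.6 and 39.3 CPM in Q140 mice. All 8 Q140 mice were below the WT mean, but the difference of -0.18 (SE 0.0817, adjusted p = 0.095) did not pass; Col4a1 had -0.10 (adjusted p = 0.289). Cspg5 had 208, 223 and 239 CPM in WT and 196, 201 and 210 CPM in Q140 mice and fell by 0.13 on the log2 scale (SE 0.0369, adjusted p = 0.00514), a call lost with total counts (adjusted p = 0.209) or FPKM. Without Cspg5 the count is 22 of 39 genes.

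Other genes of the same cells and pathways also had more lower than higher calls, against 16.0% of all genes called lower and 17.0% higher. Of 27 further endothelial genes, 12 were called lower and none higher, among them Clec14a, an endothelial lectin (-0.56, adjusted p = 0.00249), Plvap, the diaphragm protein of fenestrated vessels (-0.46, adjusted p = 5.09e-08), and Foxq1, a transcription factor of brain endothelium (-0.39, adjusted p = 0.0128). Lower calls were made for 3 of 14 further mural genes, not far from the share of all genes, led by the adhesion molecule gene Mcam (-0.34, adjusted p = 0.00295). The pericyte proteoglycan gene Cspg4, which is also counted among the oligodendrocyte precursor genes below, had -0.14 (adjusted p = 0.0114). Of 12 further fibroblast-like and meningeal genes 5 were lower and 1, Col6a2, was higher (0.52, adjusted p = 0.00262). Basement membrane genes outside the list had 5 of 12 lower, including those of perlecan, Hspg2 (-0.36, adjusted p = 0.00023), and collagen XVIII, Col18a1 (-0.40, adjusted p = 0.00287).

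Among 15 vascular ligands and Notch pathway genes 6 were lower and none higher. Jag1, a Notch ligand, fell from a mean of 17.8 CPM to 9.34 CPM (-0.93, SE 0.117, adjusted p = 1.29e-08), and the VEGF co-receptor gene Nrp1 fell by 0.42 on the log2 scale (adjusted p = 0.00048). Of 13 genes of the Wnt and beta-catenin pathway that maintains the barrier, 9 were lower and 1 higher. The Wnt ligand gene Wnt7a had -0.49 (adjusted p = 0.000135), its endothelial co-receptor gene Adgra2 (Gpr124) had -0.40 (adjusted p = 1.22e-06), and the Wnt target gene Apcdd1 had -0.45 (adjusted p = 0.000284). Jag1 and Wnt7a are also made by neural cells.

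Markers of other cells were also called in this contrast, in which 16.0% of all genes were called lower and 17.0% higher. Lower calls were made for 9 of 9 spiny projection neuron genes (median -0.83), 5 of 8 microglial genes (median -0.19), 4 of 8 astrocyte genes (median -0.19) and 3 of 7 oligodendrocyte genes (median -0.12). Summed levels of the spiny projection neuron genes were 11300 to 12710 CPM in WT and 6166 to 6955 CPM in Q140 mice. The astrocyte genes summed to 4240 to 4692 CPM in WT and 3686 to 3988 CPM in Q140 mice, and the microglial genes to 458.9 to 550.9 CPM and 382.5 to 446.2 CPM. For comparison, the 24 endothelial genes summed to 722.8 to 899.3 CPM in WT and 642.8 to 700.1 CPM in Q140 mice, and the 9 mural genes to 230.5 to 255.8 CPM and 198.7 to 220.5 CPM. Other lists went in both directions: 2 of 6 pan-neuronal genes were higher and 1 lower (median -0.02), 1 of 6 oligodendrocyte precursor genes was higher and 1 lower (median -0.05), and 1 of 8 choroid plexus and ependymal genes was higher and 1 lower (median -0.10). Red cell genes were higher in 2 of 5 cases and lower in none. The part of these cell types in the vascular differences was not tested.

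Loss of Msh3 without the knock-in left the list without a call. In Msh3+/- against WT mice edgeR called none of the 40 genes, with 0.0101% of all genes called, and 1 member had an unadjusted p under 0.05. In Msh3-/- against WT mice it again called none (0.0457% of all genes), and 6 members had an unadjusted p under 0.05. DESeq2 and limma-voom also called none in either comparison. The estimates in Msh3-/- mice ran from -0.34 for Sox18 to 0.24 for Col1a2. As a mean over genes relative to WT, endothelial genes stood at -0.06 ± 0.06 in Msh3+/- and -0.08 ± 0.09 in Msh3-/- mice (log2, SD over 8 mice), and mural genes at -0.02 and 0.01.

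The knock-in was next compared with mice of the same Msh3 genotype, in libraries that the comparison above does not use. In Q140 x Msh3+/- against Msh3+/- mice, 17 of 40 genes fell and none rose, against 10.8% of all genes called lower and 10.8% higher. They were 10 of 24 endothelial genes, 6 of 9 mural genes, none of the 4 fibroblast-like genes, and Cspg5. The count was 10 with total counts, 9 with FPKM and 11 with the prefix term. Of these 17 genes, 15 (88.2%) were also among the 23 of the Q140 and WT comparison, or 65.2% of the 23. The 2 others were Myh11 and Ocln. How many of all genes called lower here were also called lower in that comparison was not counted. Both comparisons come from one fit with a shared estimate of the spread. Tagln again had the largest difference, -0.59 (SE 0.108, adjusted p = 2.99e-05), and neither it nor Pecam1 overlapped between the groups. Cldn5 had -0.41 (adjusted p = 0.0114), Abcc9 -0.30 (adjusted p = 0.00148), Tek -0.30 (adjusted p = 0.00109) and Rgs5 -0.26 (adjusted p = 0.000161). Flt1 did not pass here (-0.22, adjusted p = 0.331).

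In Q140 x Msh3-/- against Msh3-/- mice 4 of 40 genes fell and none rose, against 3.84% of all genes called lower and 4.01% higher. They were Flt1 and the 3 smooth muscle genes. Flt1 had 77.8, 87.7 and 94.1 CPM (lowest, median and highest) in Msh3-/- mice and 27.8, 59.7 and 82.1 CPM in Q140 x Msh3-/- mice. The low end was set by males 2 and 4, with 27.8 and 32.7 CPM. The difference was -0.55 (SE 0.149, adjusted p = 0.014). Tagln had 4.86, 6.03 and 6.51 CPM against 3.07, 4.17 and 6.41 CPM (-0.43, SE 0.107, adjusted p = 0.00587). Acta2 had 4.87, 6.36 and 9.52 CPM against 4.62, 5.14 and 6.41 CPM (-0.36, SE 0.0862, adjusted p = 0.00486). Myh11 had 7.69, 9.74 and 12.9 CPM against 5.94, 7.31 and 10.2 CPM (-0.32, SE 0.0828, adjusted p = 0.00816). For each of these 3 smooth muscle genes the groups overlapped, and at least 7 of 8 double mutant mice lay below the Msh3-/- mean. Relative to WT, the mean of the 3 genes was 0.13 ± 0.18 in Msh3-/- mice (log2, SD over 8 mice). It was -0.30 ± 0.16 in Q140 and -0.25 ± 0.17 in Q140 x Msh3-/- mice. Against WT, Acta2 and Myh11 were not called in Q140 x Msh3-/- mice. None of the 6 pericyte genes and none of the 6 junction genes was called in this contrast. Fitted on these 2 groups alone, only Acta2 and Tagln passed.

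**Figure D4:**
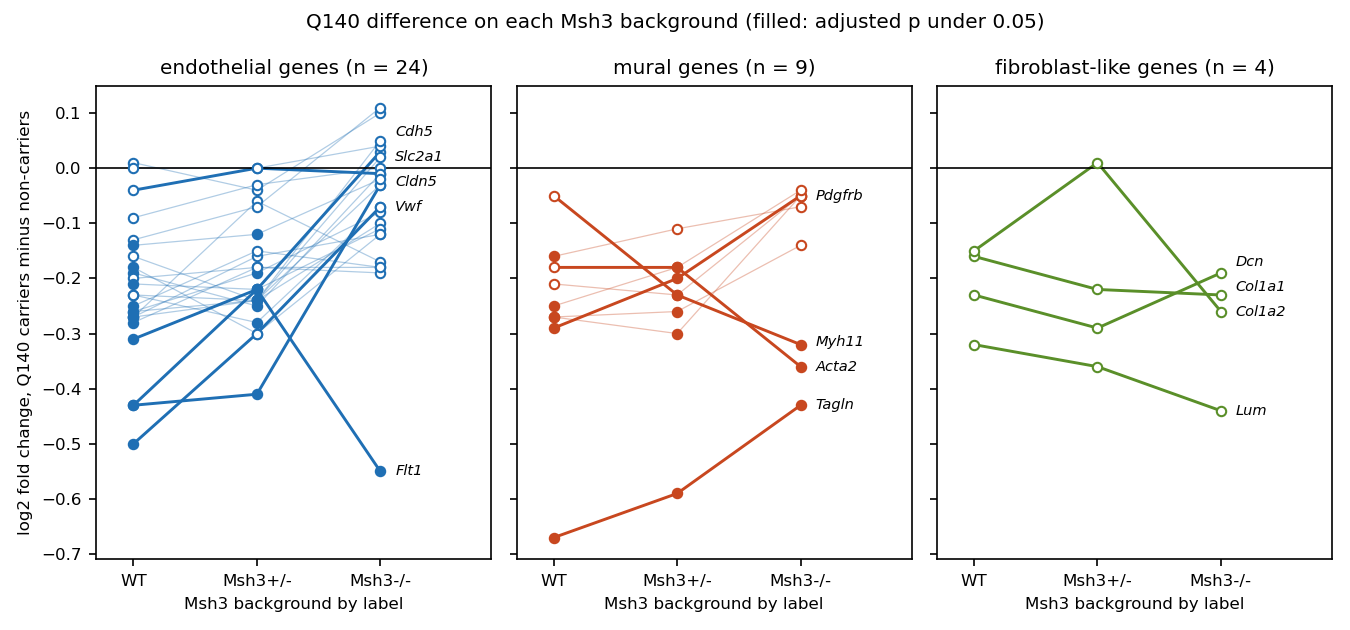
Log2 difference between mice with and without the Q140 allele on each Msh3 background (WT, +/- and -/-; no libraries are shared) for 24 endothelial, 9 mural and 4 fibroblast-like genes; each line is a gene and filled points have an adjusted p under 0.05. Filled endothelial and mural points are 22 on the WT background, 16 on Msh3+/- and 4 on Msh3-/-.

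Whether the effect of the knock-in differed between Msh3 backgrounds was tested by the interaction term. For Msh3-/- against WT background, 2 of 40 genes passed, both with a smaller fall on the Msh3-/- background, against 4.09% of all genes called in that direction and 2.06% in the other. They were Cdh5 (interaction 0.33, SE 0.101, adjusted p = 0.0352) and Pdgfrb (0.24, SE 0.0768, adjusted p = 0.0479). A positive term was found for 34 of the 40, and 12 had an unadjusted p under 0.05. The shares of all genes with a positive term or with such a p were not counted. The lowest term was -0.28, for Myh11. Total counts, FPKM, no filter or the prefix term left neither call (with the prefix term the sign of Cdh5 turned, -0.03, adjusted p = 0.973), and without the 4 libraries that lay furthest out only Cdh5 passed. Few prefixes were shared by the genotypes of this term, which limits the fit with the prefix. For the Msh3+/- background none of the 40 passed (0.0152% of all genes called), 1 had an unadjusted p under 0.05, and DESeq2 and limma-voom called none.

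Among knock-in mice, Q140 x Msh3-/- were compared with Q140, which shares the Q140 libraries with the first comparison. Here 3 of 40 genes rose and none fell, against 8.75% of all genes called higher and 7.57% lower. The share of members called higher was thus close to that of all genes. The members' median was 0.10, and 9 had an unadjusted p under 0.05. Pdgfrb had 23.3, 28.5 and 29.4 CPM in Q140 x Msh3-/- mice, against the 20.6, 24.4 and 25.9 CPM of Q140 mice given above. The difference was 0.19 (SE 0.0544, adjusted p = 0.0116), with 7 of 8 double mutant mice above the Q140 mean. Cdh5 had 13.5, 16.0 and 18.3 CPM (0.21, SE 0.0714, adjusted p = 0.0343) and Notch3 19.1, 20.8 and 24.9 CPM (0.15, SE 0.0514, adjusted p = 0.0348). Cldn5 was above the Q140 mean in 8 of 8 mice, with 11.3, 12.5 and 14.8 CPM, but did not pass (0.26, adjusted p = 0.143). Kdr (0.27, adjusted p = 0.087) and Tagln (0.25, adjusted p = 0.115) did not pass either, and Flt1 had the opposite sign (-0.19, adjusted p = 0.435). The count was 1 without Q140 female 4, 1 without Q140 x Msh3-/- male 3, 1 with total counts or FPKM, and 0 with the prefix term. Over 29 alternative fits the call of Notch3 was lost in 12, that of Cdh5 in 9 and that of Pdgfrb in 1. Only 1 prefix held both Q140 and Q140 x Msh3-/- mice.

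Genes outside the list were also called in this contrast. Of 13 Wnt pathway genes 6 were higher, including Wnt7a (0.57) and Axin2 (0.41), and of 15 ligand and Notch genes 3 were higher, including Jag1 (0.64). Higher calls were made for 4 of 27 further endothelial genes, including Plvap (0.28), and for 1 of 14 further mural genes, against 8.75% of all genes. All 9 spiny projection neuron genes were called higher. In Q140 x Msh3+/- against Q140 mice none of the 40 members passed in edgeR, and none had an unadjusted p under 0.05, with 1.32% of all genes called. The members' estimates lay between -0.19 and 0.19.

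Set against WT, Q140 x Msh3-/- mice still had 5 lower members and no higher one, against 3.37% of all genes called lower and 2.91% higher. They were Flt1 (-0.62, adjusted p = 0.00528), Tagln (-0.42, adjusted p = 0.00822), Tie1 (-0.27, adjusted p = 0.0164), Abcc9 (-0.24, adjusted p = 0.0323) and Rgs5 (-0.17, adjusted p = 0.0331). The calls of Abcc9 and Rgs5 were lost with total counts, FPKM, no filter, or without the 4 libraries that lay furthest out. None of the 5 passed with the prefix term. WT and Q140 x Msh3-/- mice shared no prefix, so that term leaves no direct comparison of these groups. As a mean over the genes of each group, endothelial genes stood at -0.22 ± 0.05 relative to WT in Q140, -0.24 ± 0.06 in Q140 x Msh3+/- and -0.15 ± 0.07 in Q140 x Msh3-/- mice (log2, SD over 8 mice). The mural genes stood at -0.26 ± 0.08, -0.27 ± 0.08 and -0.16 ± 0.09 in the same order. The fibroblast-like genes stood at -0.21 ± 0.18, -0.21 ± 0.10 and -0.16 ± 0.18.

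The smooth muscle genes Acta2 and Myh11 differed by sex. Over all genotypes 4 members were higher in males and none in females, against 1.65% of all genes called higher in males and 2.61% lower. Acta2 had 4.54, 5.01 and 6.44 CPM in the 24 females and 4.73, 6.32 and 9.52 CPM in the 24 males. The difference was 0.29 on the log2 scale (SE 0.0498, adjusted p = 0.000125). Myh11 had 5.94, 7.44 and 9.98 CPM in females and 6.90, 9.23 and 12.9 CPM in males (0.28, SE 0.0478, adjusted p = 0.000118). Notch3 had 16.8, 19.8 and 23.5 CPM in females and 18.4, 22.2 and 26.7 CPM in males (0.15, SE 0.0296, adjusted p = 0.000871). The male mean of these 3 genes was higher in 6 of 6 genotypes, although single mice overlapped. Sox17 had 4.00, 5.48 and 6.81 CPM in females and 5.08, 6.00 and 7.64 CPM in males (0.18, SE 0.0487, adjusted p = 0.0253), with a higher male mean in 5 of 6 genotypes. Tagln, the third smooth muscle gene, had a difference of -0.03 (adjusted p = 0.869). The 5 red cell genes were lower in males, with a median Hbb-bs level of 1.92 CPM in females and 0.175 CPM in males; the part of residual blood in the sex differences was not tested. With the prefix term no member passed for sex, but almost all prefixes held mice of a single sex. That fit called only 7 genes higher and 2 lower in males over all genes, so it could hardly show a sex difference. Whether the Q140 difference itself differed by sex was tested, and edgeR called no member and no other gene (0.0%); 3 members had an unadjusted p under 0.05, Cldn5 with 0.54, Acta2 with -0.36 and Cdh5 with 0.29 (males relative to females).

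**Figure D5:**
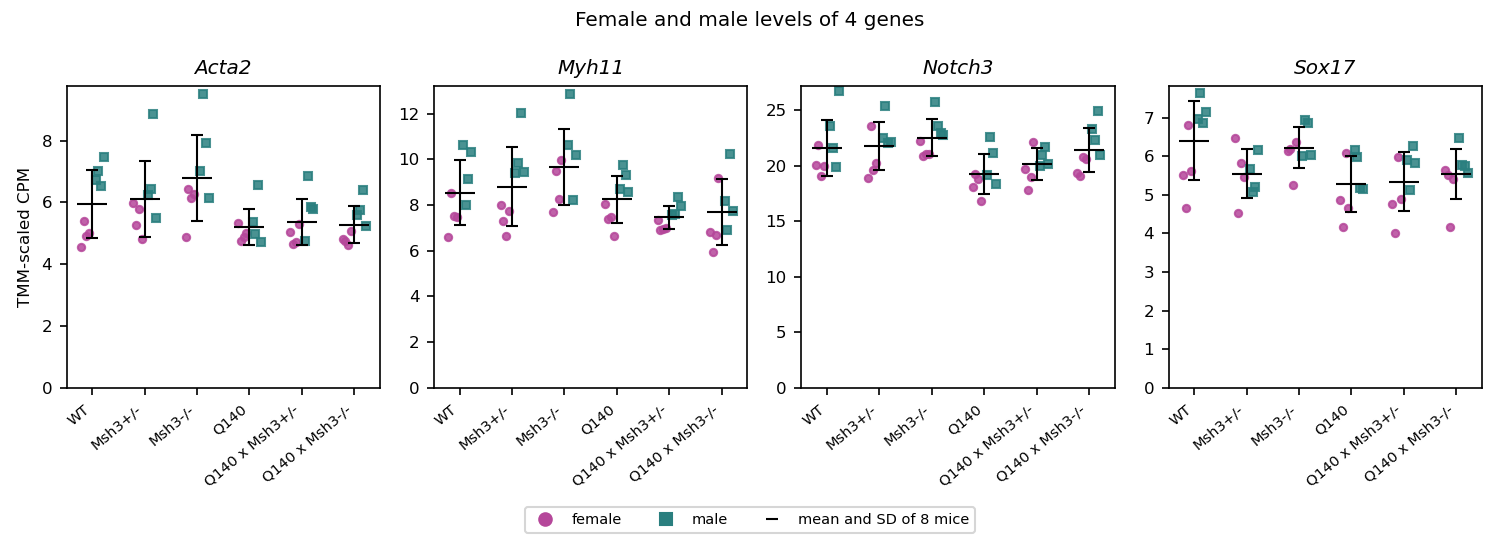
CPM of Acta2, Myh11, Notch3 and Sox17 by genotype in females (circles) and males (squares), with the mean and SD of the 8 mice of a genotype (axes start at 0). For Acta2, Myh11 and Notch3 the male mean is higher in 6 of 6 genotypes, and single mice overlap.

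Finally, the members were compared with each other over mice, after the means of genotype and sex were removed. Of 780 pairs, 53 passed by both Pearson's r and Spearman's rho (permutation test within genotype and sex over 48 mice, 100000 permutations, adjusted over the pairs), and 48 of them were positive. The closest pair was Slc2a1 and Mfsd2a, the glucose and lipid carriers of the barrier (r = 0.80, rho = 0.81, adjusted p = 0.00097 and 0.0013 by permutation, and r = 0.77 without the 2 mice farthest from the median). Col4a1 and Col4a2, whose products form one collagen molecule, had r = 0.79 and rho = 0.81 (r = 0.79 without the 2 farthest mice). The transporter genes Abcb1a and Slco1a4 had r = 0.78 and rho = 0.69 (r = 0.68 without them), and Cldn5 and Tie1 r = 0.74 and rho = 0.72 (r = 0.72 without them). For Slc2a1 and Ly6c1 r was 0.70 and rho 0.70 (r = 0.70 without them). Over all pairs the median r was 0.15 among endothelial genes, 0.25 among mural genes and 0.18 between the 2 groups. The values of a pair come from the same libraries and share their depth. The share of passing pairs among other genes was not counted.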

How the data were processed

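Striatal RNA from 48 mice was sequenced from stranded TruSeq libraries, per the labels' protocols. For the authors' counts per gene, the submitters' processing notes name GRCm38 (mm10), STAR 2.7.5c, SAMtools 1.10 and HTSeq 0.12.3; the annotation release and strand setting were not stated there. Whole-number counts, as deposited, were tested with edgeR 4.0.16 (R 4.3.3): TMM scaling, filterByExpr with a minimum count of 10, genotype and sex as terms, all 48 libraries, Benjamini-Hochberg adjustment over 19714 genes, threshold 0.05. CPM are these counts scaled to 1000000 per library after TMM, and a 95% interval is the SE times 2.02. The authors' deposited FPKM were used to compare levels between genes, and on the log2(FPKM + 0.1) scale with limma 3.58.1 as an alternative; DESeq2 1.42.0 and limma-voom were others. Replicates are separate mice. Replicate numbers did not pair the libraries as a whole, although the 4 libraries furthest out on the first residual component all bore number 1. The main fit was tested on data simulated for Q140 against WT, with changes given to genes above a mean of 1 CPM. It recovered 52.2% of log2 changes of 0.25, 85.1% of 0.5 and 98.5% of 1. False calls numbered 4 among 19540 genes tested. Far fewer genes were changed than were called in the data, so these rates may not hold there.

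The members and lists were chosen with earlier results of these data known. The genes given with full values are Cldn5, Cdh5, Flt1, Slc2a1, Ly6a, Vwf, Podxl, Sox17, Pdgfrb, Rgs5, Vtn, Abcc9, Notch3, Acta2, Tagln, Myh11, Dcn, Col4a2 and Cspg5, taken by a rule: in each group of members, up to 6 with the largest change among those called in Q140 against WT and the one with the highest FPKM, every member called for sex, for an interaction or between knock-in genotypes, and Cspg5. From other lists up to 3 genes with the largest change were eligible. Other members and genes were named after their values were seen. Promoters came from RefSeq tables (GRCm38.p6) and gene coordinates from the GRCm38 annotation in the reference. The prefix of the sample name, used as a term in an alternative, has no stated meaning in the labels: 15 of 27 prefixes hold 1 library and 2 hold both WT and Q140 mice. Only 1 holds both Q140 and Q140 x Msh3-/- mice. WT and Q140 x Msh3-/- mice share none, and almost all prefixes hold a single sex.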

Additional observations from a re-analysis of the deposited data

Results flagged for a closer look

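A single mouse lay far from the other 7 of its genotype in 7 of the 114 groups examined (the genes given with full values, in 6 genotypes); chance alone gives such a gap in about 1 in 20 groups. Vwf was 67.9 CPM in WT female 2, and the next WT mouse had 32.0 CPM. Sox17 was 4.16 CPM in Q140 x Msh3-/- female 3, with the next mouse at 5.42 CPM. Pdgfrb was 20.6 CPM in Q140 female 4, and the next lowest Q140 mouse had 23.95 CPM. In Msh3+/- female 4, Rgs5 was 79.6 CPM against 101 CPM in the next mouse, and Cspg5 was 191 CPM against 218 CPM. Acta2 was high in 2 males: Msh3+/- male 3 had 8.86 CPM (next 6.44 CPM) and Q140 male 3 had 6.55 CPM (next 5.38 CPM).

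The difference between mice with and without the Q140 allele itself differed between the Msh3-/- and WT backgrounds for 2 of 40 genes, by the interaction term of the edgeR fit. Over all genes 4.09% were called in that direction, a similar share. Cdh5 had an interaction of 0.33 on the log2 scale (adjusted p = 0.0352, and -0.03 with the prefix term) and Pdgfrb one of 0.24 (adjusted p = 0.0479). Neither call was left with total counts, FPKM, no filter or the prefix term.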

How the results depend on the processing

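Of the called differences, only the interaction of Cdh5 changed direction in any alternative (0.33, and -0.03 with the prefix term, adjusted p = 0.973). Of the members not called in Q140 against WT, Slc2a1 (-0.08 to 0.03), Myh11 (-0.08 to 0.02), Mfsd2a (-0.13 to 0.06), Egfl7 (-0.04 to 0.07) and Abcg2 (-0.04 to 0.08) did. For Q140 against WT the count of lower members was 14 with total counts in place of TMM, 12 with limma on log2(FPKM + 0.1) and 11 with the sample name prefix as a term; leaving out 1 mouse at a time gave 17 to 25. For Q140 x Msh3-/- against Q140 the 3 calls became 1 with total counts, 1 with FPKM, 5 with plate column as a term, 0 with the prefix, 6 with only the 2 groups, and 1 to 4 with 1 mouse left out. For Q140 x Msh3+/- against Msh3+/- the 17 calls became 10 with total counts, 9 with FPKM and 11 with the prefix. For Q140 x Msh3-/- against Msh3-/- the 4 calls became 7 with the prefix and 2 with only the 2 groups. Against WT, the 5 calls of Q140 x Msh3-/- mice became 3 with total counts, 3 with FPKM, 3 with no filter, 3 without the 4 libraries furthest out, and 0 with the prefix. The 2 interaction calls became 0 with total counts, FPKM, no filter or the prefix, and 1 with upper-quartile scaling, without sex or without those 4 libraries. The 4 sex calls became 0 with the prefix, a term nearly tied to sex. The causes were not tested. The prefix term leaves few direct comparisons between genotypes, so calls lost with it are hard to read. Over all genes, total counts moved the calls of Q140 against WT from 3148 lower and 3358 higher to 2064 lower and 5773 higher and the median log2 difference from -0.004 to 0.065. Leaving out the 4 libraries was chosen after seeing the data.

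With a replicate block the counts were 22, 17, 4, 3, 5 and 2, in the order Q140 against WT, the same within Msh3+/- and Msh3-/-, Q140 x Msh3-/- against Q140 and against WT, and the interaction. As a whole the numbers did not pair the mice: residuals of same-numbered libraries had a median correlation of -0.0218, and 3 of 48 libraries correlated best with their own number. Single same-numbered pairs reached 0.329, and the 4 libraries furthest out all bore number 1.

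Depth limits Lum most, with as few as 19 reads in a library.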
